A study of Mus musculus with 24 samples.

Results

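The chromatin and nucleoplasm fractions of naive mouse embryonic stem cells were compared gene by gene, as 3 chromatin libraries against 3 nucleoplasm libraries. These are 6 of the 24 RNA sequencing libraries of the study, and 12592 of the 29759 genes in the table had a mean of at least 1 FPKM over its 12 libraries and were tested. FPKM scales fragments by transcript length and library size and is thus a level per length. All groups are cells of the E14 mouse line. The naive cells (nESC) were grown in N2B27 medium with PD0325901, an inhibitor of MEK, with CHIR99021, an inhibitor of GSK3, and with the cytokine LIF. A second state, epiblast-like cells (EpiLC), came from day 3 in activin A (20 ng/ml) plus bFGF (12 ng/ml) and is used only to test which chromatin-nucleoplasm differences depend on the state. Both states come from 1 line. RNA of each fraction was depleted of ribosomal RNA and not selected for poly(A) tails, so that unfinished transcripts were sequenced too. The cytoplasm and the total RNA of the same cells, also 3 libraries each, are given where they help to place a transcript.

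Chromatin-associated RNA holds transcripts still attached to RNA polymerase on their template, finished transcripts that have not been released, and noncoding RNAs that act on chromatin. The nucleoplasm holds released RNA on its way through processing and export, and RNA stored in soluble nuclear bodies. Spliced and polyadenylated messages are released from the template and exported, whereas primary microRNA transcripts are cut by the Drosha complex while they are still attached, and the rest of the transcript is degraded. Naive cells are kept by a network of transcription factors that includes OCT4, NANOG and SOX2, and proliferate with the help of microRNAs that share a few seed sequences.

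MicroRNA precursors were among the transcripts with the largest excess in chromatin. The mature sequences of 4 loci are printed here because the genes that span them were measured in both fractions and because microRNAs of different loci share seeds. They were read from RefSeq on GRCm38.p6, run 5′ to 3′, and have the seed (bases 2 to 8) in capitals. The first 6 lie in exons of Mir17hg on the + strand of chromosome 14, between miR-17-5p at chr14:115043684-115043706 and miR-92a-3p at chr14:115044476-115044496.
mmu-miR-17-5p: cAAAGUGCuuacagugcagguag
mmu-miR-18a-5p: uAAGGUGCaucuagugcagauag
mmu-miR-19a-3p: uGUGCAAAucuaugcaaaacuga
mmu-miR-20a-5p: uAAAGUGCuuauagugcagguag
mmu-miR-19b-3p: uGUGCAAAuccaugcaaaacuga
mmu-miR-92a-3p: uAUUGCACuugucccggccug
The next 3 come from the related cluster inside Mcm7, a replication helicase gene on the - strand of chromosome 5, with miR-106b-5p at chr5:138165787-138165807 and miR-25-3p at chr5:138165332-138165353.
mmu-miR-106b-5p: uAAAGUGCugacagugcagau
mmu-miR-93-5p: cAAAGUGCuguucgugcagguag
mmu-miR-25-3p: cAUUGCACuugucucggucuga
The let-7 microRNAs, which promote differentiation, have 3 members in exons of the long noncoding RNA 6720427I07Rik on the - strand of chromosome 13, with let-7a-5p at chr13:48538239-48538260.
mmu-let-7a-5p: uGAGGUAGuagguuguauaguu
mmu-let-7f-5p: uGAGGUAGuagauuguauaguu
mmu-let-7d-5p: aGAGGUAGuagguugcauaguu
The last 3 belong to the microRNA cluster that is most abundant in pluripotent mouse cells. They lie on the + strand of chromosome 7, at the annotated gene Nlrp12 of the - strand, with miR-294-3p at chr7:3220691-3220712.
mmu-miR-291a-3p: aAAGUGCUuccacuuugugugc
mmu-miR-294-3p: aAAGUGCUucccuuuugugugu
mmu-miR-295-3p: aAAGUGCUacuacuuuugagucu
By seed, miR-17-5p, miR-20a-5p, miR-106b-5p and miR-93-5p share AAAGUGC, and miR-92a-3p and miR-25-3p share AUUGCAC. The pair miR-19a-3p and miR-19b-3p share GUGCAAA, the 3 let-7 microRNAs share GAGGUAG, and the 3 microRNAs at Nlrp12 share AAGUGCU.

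Mir17hg, the primary transcript of the first cluster (ENSMUSG00000089726.2, chr14:115042879-115046727, GRCm38), had 182, 166 and 110.1 FPKM in the chromatin libraries, against 3.54, 3.48 and 3.82 FPKM in the nucleoplasm libraries. Every chromatin library was far above every nucleoplasm library, and the log2 fold on the log2(FPKM + 0.5) scale used throughout was 5.19 (SE 0.15, adjusted p = 8.32e-11) with limma, that is 36.4-fold. Its cytoplasmic level was 0.724 ± 0.129 FPKM and its level in total RNA 34.3 ± 1.77 FPKM (SD, n = 3). The let-7 transcript 6720427I07Rik had 171, 164 and 93.6 FPKM in the chromatin libraries, against 7.13, 6.39 and 7.07 FPKM in the nucleoplasm libraries, a log2 fold of 4.23 (SE 0.20, adjusted p = 1.09e-09). Mcm7 holds 3 hairpins, 2 of them in annotated exons, and makes the message of the helicase, so its level is not that of the microRNA precursor alone. It had 394, 274 and 258 FPKM in the chromatin libraries, against 198, 193 and 203 FPKM in the nucleoplasm libraries. The groups did not overlap, but the log2 fold of 0.61 (SE 0.13, adjusted p = 0.000686) stayed under the threshold of 1 set here beside an adjusted p under 0.05 (Benjamini-Hochberg over all 12592 genes).

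Nlrp12, a gene of the NOD-like receptor family, had 179.8, 175 and 88.1 FPKM in the chromatin libraries, against 4.37, 5.16 and 4.76 FPKM in the nucleoplasm libraries, a log2 fold of 4.75 (SE 0.25, adjusted p = 2.69e-09). Hairpins of that cluster, those of miR-294 and miR-295 among them, and the printed miR-291a-3p lie inside its annotated span (chr7:3218784-3249740) on the other strand. Whether fragments were counted by strand is not given in the sources used here, so fragments of the cluster's primary transcript and of Nlrp12 cannot be told apart. Mirg, a noncoding gene of the imprinted Dlk1-Dio3 region on chromosome 12 that holds 14 RefSeq hairpins, had 739, 537 and 463 FPKM in the chromatin libraries, against 44.7, 48.1 and 38.7 FPKM in the nucleoplasm libraries, a log2 fold of 3.69 (SE 0.15, adjusted p = 4.15e-10). Its neighbours in that region had smaller excesses. Rian had 1455, 1502 and 1690.1 FPKM in the chromatin libraries, against 715, 718 and 711 FPKM in the nucleoplasm libraries, a log2 fold of 1.11 (SE 0.07) that turned to -0.41 after a correction for exonic length and GC content. Meg3 had 349, 329 and 385 FPKM in the chromatin libraries, against 166, 187 and 157 FPKM in the nucleoplasm libraries, a log2 fold of 1.05 (SE 0.09) that fell to 0.27 after that correction and lay just under the threshold without chromatin replicate 3, at 0.99, and without nucleoplasm replicate 3, at 1.0. All 3 genes come from one chromosomal region and are not independent examples.

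Of the 439 tested genes that hold a RefSeq hairpin on their own strand, 100 were called higher in chromatin (22.8%) and 47 lower (10.7%). Over all 12592 genes, 2195 were called higher (17.4%) and 2179 lower (17.3%). Of 21 noncoding hosts 14 were called higher and 1 lower, with a median log2 fold of 1.43. This share of 66.7% stands beside 57.7% of all 1004 noncoding genes tested. Of 418 coding hosts 20.6% were called higher, beside 13.9% of all coding genes, with a median of 0.17. Among 8 noncoding hosts of 2 or more hairpins all 8 were called higher, with a median of 3.17. Besides those already named, Gm15884, a transcript over miR-200c and miR-141, had a log2 fold of 3.12 (SE 0.28, adjusted p = 3.93e-07), 4833445I07Rik over miR-191 and miR-425 one of 3.21 (SE 0.20, adjusted p = 1.01e-08), A330023F24Rik over a miR-29 pair one of 2.37 (SE 0.20), and the X-linked Ftx one of 2.27 (SE 0.16). Dleu2, the host of miR-16-1, had a fold of 2.07 (SE 0.11), or 0.71 and no call after the length and GC correction. The coding host of the miR-23b, miR-27b and miR-24-1 hairpins, 2010111I01Rik, was at 2.19 (SE 0.12). The counts of hosts were made after the values were seen.

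**Figure D1:**
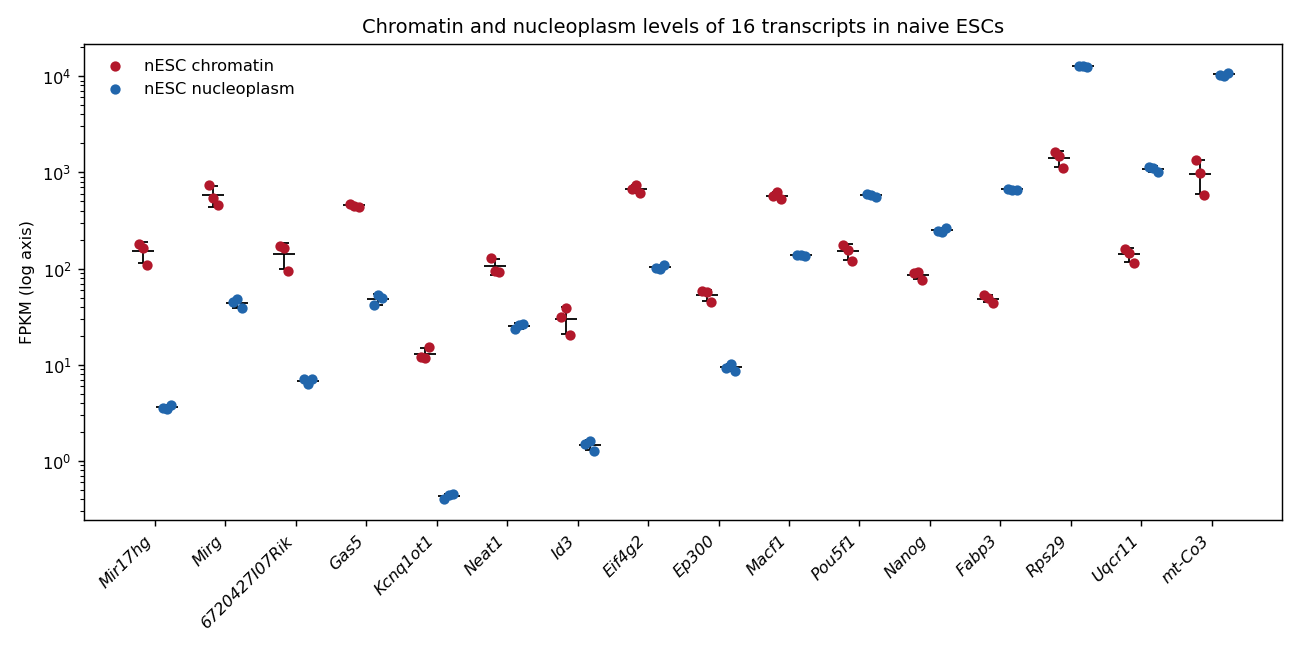
FPKM on a log axis of 16 transcripts in the 3 chromatin libraries (red) and the 3 nucleoplasm libraries (blue) of naive cells, with the mean and SD in black. The chromatin values of Mir17hg lie between 110.1 and 182 FPKM and its nucleoplasm values between 3.48 and 3.82, while the order is turned for Pou5f1, Nanog, Fabp3, Rps29, Uqcr11 and mt-Co3, and for no transcript shown do the fractions overlap.

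Across all genes, 4374 were called (34.7%), and they split almost evenly by direction. The median log2 fold of all genes was 0.02. With each library scaled to one FPKM sum that median moved to 0.69 and the calls split into 4862 higher and 921 lower, so directions below are relative to the typical gene. The 6 libraries did not overlap between fractions for 9740 genes (77.4%). A called-higher gene had a median of 11.7 FPKM in chromatin and 3.0 FPKM in nucleoplasm, with 1.74 FPKM in cytoplasm. A called-lower gene had a median of 11.9 FPKM in chromatin and 34.5 FPKM in nucleoplasm, with 52.4 FPKM in cytoplasm. The median chromatin levels of the sets lay close together, and their nucleoplasmic and cytoplasmic levels lay far apart. The larger folds lay toward chromatin: 643 called genes had a log2 fold of at least 2 and 173 of at least 3, against 485 and 49 in the other direction.

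Chromatin libraries were shallower and more variable than nucleoplasm libraries. The steps between low FPKM values put 31.0 to 37.1 fragments behind 1 FPKM in a 2 kb transcript in chromatin and 75.6 to 93.3 in nucleoplasm, and replicates correlated across genes with a Pearson r of 0.9663 to 0.9815 in chromatin and 0.9918 to 0.9945 in nucleoplasm. Both correlations of chromatin replicate 3, at 0.9663 and 0.9753, were under that of the other chromatin pair, and it was the lowest chromatin library for mt-Co1, mt-Co3 and the Zscan4 genes described below. FPKM sums were 451382 to 501218 in chromatin and 749514 to 823865 in nucleoplasm. The labels do not say that replicates are separate cultures, so p-values measure the spread between these libraries, which may be technical. The naive label was checked against its markers, and 8 genes, among them Nanog, Klf4 and Esrrb, summed to 793 to 931 FPKM in chromatin and 1560 to 1590 FPKM in nucleoplasm. A set of 6 defining markers of primitive endoderm summed to 1.83 to 2.56 FPKM in chromatin and 0.848 to 1.41 FPKM in nucleoplasm, with 5 of 6 below 1 FPKM in every library, and none was at 0 throughout. The 6 tested genes of a longer list of 18, Sparc and Apoe among them, summed to 262 to 481 FPKM in chromatin and 2800 to 3010 FPKM in nucleoplasm. Mesoderm and neural markers, T among them, summed to 31.0 to 43.0 FPKM in chromatin and 19.7 to 21 FPKM in nucleoplasm, with 2 of 6 below 1 FPKM in every library. All 6 fibroblast or feeder markers were below 1 FPKM in every library.

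Of 29 long noncoding RNAs described as nuclear 16 were called higher in chromatin (55.2%) and 6 lower, with a median log2 fold of 1.23, beside 57.7% higher and a median of 1.32 for all 1004 noncoding genes. After the length and GC correction 13 were higher and 5 lower, with a median of 0.75. Kcnq1ot1, an imprinted antisense RNA that silences its neighbours, had 12.2, 11.8 and 15.3 FPKM in the chromatin libraries, against 0.406, 0.443 and 0.455 FPKM in the nucleoplasm libraries, a log2 fold of 3.85 (SE 0.12, adjusted p = 9.04e-11). Xist, the RNA of X inactivation, had 6.63, 6.24 and 7.13 FPKM in chromatin and 0.271, 0.351 and 0.288 FPKM in nucleoplasm, a fold of 3.16 (SE 0.12). Neat1, the scaffold of paraspeckles, had 128, 95.3 and 92.5 FPKM in the chromatin libraries, against 23.5, 26.2 and 26.5 FPKM in the nucleoplasm libraries, a fold of 2.02 (SE 0.13, adjusted p = 1.76e-08). In all 3 genes every chromatin library lay above every nucleoplasm library. As the use of strand is not given, fragments from the opposite strand cannot be told apart from those of Xist or Kcnq1ot1. Malat1, an abundant RNA of nuclear speckles, cannot be read the same way. It had 4762, 4391 and 5438 FPKM in chromatin and 3809.8, 3589.5 and 0 FPKM in nucleoplasm, and the last 0 gives an unstable log2 fold of 4.67 (SE 2.44, adjusted p = 0.0984) that was not called, or 0.39 and no call with that 0 treated as missing. Without nucleoplasm replicate 1 or 2, where the 0 is 1 of 2 values, Malat1 was called at 6.84 and 6.79.

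Fewer noncoding genes lay toward the nucleoplasm, with 89 of 1004 called lower in chromatin (8.86%). Platr17, a transcript found in pluripotent cells, is annotated here as coding and is not among them. It had 2.72, 3.20 and 2.53 FPKM in the chromatin libraries, against 8.89, 11.3 and 9.68 FPKM in the nucleoplasm libraries, a log2 fold of -1.66 (SE 0.10, adjusted p = 1.47e-08). Hotairm1, from the HoxA cluster, had 1.31, 0.248 and 0.217 FPKM in chromatin and 3.95, 3.16 and 3.17 FPKM in nucleoplasm, a fold of -1.98 (SE 0.40, adjusted p = 0.00057). Gm26917, a long noncoding RNA, stood at a listed 0 in each chromatin library and at 549, 598 and 475 FPKM in nucleoplasm, and averaged 4926 ± 1269 FPKM (SD, n = 3) in total RNA, so no fold is given. By annotated type, 234 of 378 antisense genes were called higher (median 1.52), 170 of 322 lincRNAs (1.15) and 44 of 47 sense intronic genes (2.72). Protein-coding genes had 1604 higher and 2087 lower of 11558, with a median of -0.04.

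Spliced noncoding RNAs described as exported or as hosts of small nucleolar RNAs had 7 of 15 higher in chromatin (46.7%) and 1 lower, and the median log2 fold was 0.99. Both lay under the values of all 1004 noncoding genes, 57.7% higher and a median of 1.32. Gas5, whose introns encode small nucleolar RNAs, had 471, 449.9 and 441 FPKM in the chromatin libraries, against 41.7, 53.4 and 49.3 FPKM in the nucleoplasm libraries, a log2 fold of 3.23 (SE 0.10, adjusted p = 8.4e-11). Its cytoplasm held 18.7 ± 1.66 FPKM. Dancr, a spliced noncoding RNA, had 101, 86.5 and 36.96 FPKM in the chromatin libraries, against 5.64, 5.87 and 6.06 FPKM in the nucleoplasm libraries, a fold of 3.44 (SE 0.27, adjusted p = 1.2e-07), with chromatin replicate 3 well below the other chromatin libraries. Snhg5 had 599.9, 629 and 577 FPKM in chromatin and 162, 160.3 and 154 FPKM in nucleoplasm, a fold of 1.92 (SE 0.06). The 1 call in the other direction was Epb41l4aos, with 31.7, 31.03 and 38.5 FPKM in the chromatin libraries, against 165, 156 and 136 FPKM in the nucleoplasm libraries and a fold of -2.16 (SE 0.09, adjusted p = 6.4e-10).

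Among the coding genes with the largest excess in chromatin were some that were near 0 in the nucleoplasm and some known from other tissues. Arsb, a lysosomal sulfatase gene, had 16.4, 38.1 and 16.01 FPKM in the chromatin libraries, against 0.165, 0.126 and 0.150 FPKM in the nucleoplasm libraries, a log2 fold of 5.09 (SE 0.25, adjusted p = 1.75e-09). Gpr151, an orphan receptor gene of neurons, had 14.6, 20.1 and 14.6 FPKM in chromatin and 0.0537, 0.148 and 0.0578 FPKM in nucleoplasm, a fold of 4.84 (SE 0.16, adjusted p = 1.26e-10). Hpgds, a prostaglandin D synthase gene of blood cells, had 14.4, 20.7 and 16.6 FPKM in chromatin and 0.368, 0.0941 and 0.238 FPKM in nucleoplasm, a fold of 4.6 (SE 0.20). In cytoplasm Arsb stood at 0.0785 ± 0.0260 FPKM and Hpgds at 0.137 ± 0.171 FPKM, and Gpr151 is listed at 0. Arsb, Hpgds and Gpr151 thus passed the filter only through chromatin or total RNA. Srpk3, a muscle kinase gene, followed at 4.52 (SE 0.27), the olfactory receptor genes Olfr837 and Olfr836 at 4.25 (SE 0.16) and 3.94 (SE 0.19), the muscle methyltransferase gene Mettl21c at 3.86 (SE 0.13), Tmem72 at 3.98 (SE 0.18) and Ypel4 at 3.84 (SE 0.22). Tmem72 was the most abundant of these, with 201, 239 and 121 FPKM in the chromatin libraries, against 10.96, 10.6 and 11.2 FPKM in the nucleoplasm libraries. Phykpl, a lyase gene of amino acid metabolism, had 137, 114 and 98.6 FPKM in chromatin and 5.86, 6.37 and 5.24 FPKM in nucleoplasm, a fold of 4.20 (SE 0.13, adjusted p = 9.04e-11).

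Several of these genes lie next to the 3′ end of a gene with a higher level in total RNA. Arsb follows Dmgdh on the same strand. Hpgds lies opposite the end of Smarcad1, Mettl21c opposite Tpp2, Phykpl opposite Hnrnpab and Srpk3 opposite Idh3g. Lrrc75aos2, whose log2 fold of 5.23 (SE 0.22, adjusted p = 4.4e-10) rests on 47.3, 37.95 and 30.7 FPKM in chromatin and 0.620, 0.440 and 0.531 FPKM in nucleoplasm, and Lrrc75a at 4.29 (SE 0.24) lie just past the noncoding gene 2410006H16Rik. A count was made after these were seen, of genes with a neighbour of at least 5 FPKM in total RNA and at least 5 times their own level whose 3′ end lies inside the gene, or at most 20 kb before it in the direction in which the neighbour is transcribed. Such a neighbour was found for 30.7% of genes called higher in chromatin, 8.69% of those called lower and 16.1% of all. Among genes under 5 FPKM in total RNA the shares were 43.3% of those called higher, 25.9% of those called lower and 27.4% of those not called. Among these low genes the neighbour was on the opposite strand for 35.2% of those called with a log2 fold of at least 2, against 20.2% of all. The low genes were not matched in level, and a lower gene meets the condition of 5 times its level more easily. Their median in total RNA was 1.33 FPKM for those called higher, 2.34 for those called lower and 2.15 for those not called. It was 0.927 FPKM for those called with a log2 fold of at least 2, against 1.88 FPKM for all. Fragments of a neighbour and of the gene itself cannot be told apart on the opposite strand, where the use of strand is not given, nor on the same strand.

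Opposite-strand transcripts, the genes with names ending in os, were higher in chromatin in 31 of 69 cases and lower in 12, with a median of 0.76 that turned to -0.45 among those with a mean of at least 5 FPKM. The share called higher, 44.9%, stands beside 57.7% of all 1004 noncoding genes. Zbtb11os1 had 17.6, 13.6 and 11.3 FPKM in chromatin and 0.833, 0.837 and 0.744 FPKM in nucleoplasm, a log2 fold of 3.47 (SE 0.18), and Ptprtos was at 3.06 (SE 0.25). The name pattern also takes in coding genes such as Minos1, a mitochondrial membrane gene, and Crxos, which were among the 12 lower. Genes with clone-type names had 635 of 1329 higher and 124 lower (median 0.94, or 0.37 among those with a mean of at least 5 FPKM). Of 17 genes named as pseudogenes 12 were lower (median -1.52). Reads of a pseudogene may belong to its parent. Of 200 solute carrier genes 23 were higher (11.5%) and 24 lower (12.0%), beside 17.4% and 17.3% of all genes. The highest were Slc10a1 at 3.67 (SE 0.16), which has fewer than 0.1 FPKM in every nucleoplasm library and lies opposite the end of Srsf5, and Slc16a4 at 3.07 (SE 0.20).

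More chromatin regulator genes were called higher than lower in chromatin. Of 75 chromatin regulator genes 28 were called higher (37.3%) and 1 lower (1.33%), with a median log2 fold of 0.66. Of all genes 17.4% were higher and 17.3% lower, and these shares also stand beside the lists that follow. Ep300, the gene of the acetyltransferase p300, had 58.1, 56.8 and 45.4 FPKM in the chromatin libraries, against 9.26, 10.2 and 8.68 FPKM in the nucleoplasm libraries, a log2 fold of 2.44 (SE 0.11, adjusted p = 6.65e-10). Kmt2e, a gene of the trithorax family, had 24.4, 28.4 and 22.5 FPKM in chromatin and 5.34, 6.17 and 5.44 FPKM in nucleoplasm, a fold of 2.05 (SE 0.13), and the remodeller gene Chd6 80.5, 88.8 and 88.5 FPKM in chromatin and 20.7, 20.2 and 20.02 FPKM in nucleoplasm, a fold of 2.05 (SE 0.13). Atrx, a remodeller of heterochromatin, had 220.2, 299 and 326 FPKM in chromatin and 84.05, 89.3 and 91.5 FPKM in nucleoplasm, a fold of 1.65 (SE 0.14). The chromatin libraries were above the nucleoplasm libraries for all 4 genes. The 1 called lower was Smarcb1, a small subunit gene of the BAF complex, at -1.32 (SE 0.07), while the BAF ATPase gene Smarca4 at -0.76 and the deacetylase gene Hdac2 at -0.75 were not called. These transcripts are long, with a median exonic length of 10444 bp, and after the length and GC correction 7 of the 75 were called higher and 3 lower, with a median of 0.28. Of all 12562 genes in the corrected fit 1914 were higher and 1940 lower, with a median of -0.03. After the correction the share of regulator genes called higher was thus no longer above that of all genes, while their median was. Atrx was then at 0.42 and not called, and Smarcb1 was at -0.62 and not called after scaling to one sum.

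Genes described as having detained introns, which stay in the nucleus unspliced, had 22 of 49 higher and none lower, with a median of 0.90. Ccnl1, a cyclin of splicing kinases, had 180.1, 189 and 176 FPKM in the chromatin libraries, against 37.2, 36.7 and 40.1 FPKM in the nucleoplasm libraries, a log2 fold of 2.24 (SE 0.09, adjusted p = 3.86e-10). Sfswap, a splicing regulator, was at 1.95 (SE 0.09), the branch point binding protein gene Sf1 at 1.80 (SE 0.08) and the splicing factor gene Rbm25 at 1.77 (SE 0.09). The lowest was U2af2, at -0.77 and not called. After the length and GC correction 10 were called higher and none lower (median 0.50), and Rbm25 lost its call at 0.51.

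Core splicing and hnRNP genes lay on both sides, with 7 of 62 higher and 23 lower and a median of -0.34, or 0.35 after scaling to one sum. At the low end, Lsm7, of the Lsm ring, had 81.1, 62.1 and 67.5 FPKM in the chromatin libraries, against 625, 593 and 565 FPKM in the nucleoplasm libraries, a log2 fold of -3.08 (SE 0.10, adjusted p = 1.12e-10), and Snrpf was at -2.60 (SE 0.10). At the high end were Sf3b3, a large subunit gene of the U2 particle, with 233, 226 and 200.1 FPKM in the chromatin libraries, against 77.3, 75.2 and 73.1 FPKM in the nucleoplasm libraries and a fold of 1.54 (SE 0.07, adjusted p = 6.73e-10), and Hnrnpa2b1 at 1.46 (SE 0.08). The transcription machinery also lay on both sides, and 6 of 69 genes were higher and 15 lower, with a median of -0.05 that became 0.63 after scaling to one sum. Polr2a, the gene of the catalytic subunit of RNA polymerase II, had 26.3, 18.9 and 21.01 FPKM in the chromatin libraries, against 5.51, 4.57 and 5.56 FPKM in the nucleoplasm libraries, a fold of 1.98 (SE 0.16, adjusted p = 1.26e-07). Its small subunit genes Polr2k and Polr2f were at -2.32 (SE 0.18) and -2.03 (SE 0.10). The elongation genes Brd2 and Cdk12 were at 2.06 (SE 0.12) and 1.84 (SE 0.10).

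Genes of very long coding sequence had 15 of 39 higher and none lower (median 0.76), which became 1 higher and 1 lower with a median of 0.03 after the length and GC correction. Macf1, a giant cytoskeletal linker gene, had 563, 621 and 527 FPKM in the chromatin libraries, against 138, 138 and 135 FPKM in the nucleoplasm libraries, a log2 fold of 2.05 (SE 0.09, adjusted p = 6.83e-10), or 0.76 after that correction. Mdn1, a gene of ribosome assembly, was at 1.75 (SE 0.20) and Hectd4, a ubiquitin ligase gene, at 1.80 (SE 0.18), and Mdn1 was at 0.80 and not called after the correction. Genes of very long introns had 12 of 26 higher and none lower (median 0.92). Bach2, a transcriptional repressor of lymphocytes, had 28.3, 24.8 and 19.8 FPKM in the chromatin libraries, against 0.776, 2.21 and 1.17 FPKM in the nucleoplasm libraries, a fold of 3.77 (SE 0.31, adjusted p = 1.58e-07). Trps1 at 2.28 (SE 0.13) and Ralgapa2 at 2.21 (SE 0.10) followed, whereas Dmd, the dystrophin gene, was at -0.74 and not called. After the correction 9 were higher and 1 lower.

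Zinc finger genes with Zfp names, many of them repressors of transposons, had 82 of 334 called higher (24.6%) and 4 lower, with a median of 0.48. Zfp202 had 10.3, 12.3 and 17.3 FPKM in chromatin and 0.883, 0.778 and 1.10 FPKM in nucleoplasm, a log2 fold of 3.26 (SE 0.18), and Zfp386 71.5, 87.8 and 71.2 FPKM in chromatin and 10.1, 9.17 and 10.6 FPKM in nucleoplasm, a fold of 2.88 (SE 0.19). Zfp87 lay in the other direction, with 2.38, 5.14 and 6.23 FPKM in the chromatin libraries, against 20.9, 20.6 and 20.3 FPKM in the nucleoplasm libraries and a fold of -2.14 (SE 0.23, adjusted p = 2.4e-06). Members of this family share sequence, and reads may be split between them. Genes of RNA decay and microRNA processing had 12 of 44 higher and 1 lower (median 0.19). Dgcr8, the RNA-binding partner of Drosha, had 73.02, 68.00 and 78.2 FPKM in the chromatin libraries, against 21.8, 21.2 and 22.4 FPKM in the nucleoplasm libraries, a fold of 1.72 (SE 0.07, adjusted p = 5.62e-10). The complex of Drosha with this partner is known to cleave a hairpin in the Dgcr8 message. The deadenylase gene Cnot6 was at 1.96 (SE 0.15) and the uridylyl transferase gene Tut4, which acts on let-7 precursors, at 1.70 (SE 0.17), while Exosc3, a gene of the exosome cap, was at -1.5 (SE 0.11), or -0.83 after scaling to one sum and -0.96 after the length and GC correction, both without a call.

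Cell division genes were spread about zero, with 8 of 54 higher and 2 lower and a median of 0.21, or 2 and 2 with a median of -0.06 after the length and GC correction. Stag1, a cohesin gene, was at 1.57 (SE 0.07), the proliferation marker Mki67 at 1.48 (SE 0.15) and the spindle gene Aspm at 1.36 (SE 0.17). The B cyclin gene Ccnb2 was at -1.37 (SE 0.07) and the spindle motor gene Kif11 at -1.12 (SE 0.20), which was -0.87 and not called without chromatin replicate 1 and -0.43 and not called after scaling to one sum. After the length and GC correction Stag1 at 1.0, Aspm at 0.88 and Ccnb2 at -0.85 were not called, nor was Ccnb2 after scaling to one sum, at -0.68. Among nuclear pore and export genes 8 of 50 were higher and 2 lower, with a median of 0.10, or 3 and 1 with a median of -0.10 after that correction. Nup153 was at 1.68 (SE 0.08), Ranbp2, a giant filament protein gene of the pore, at 1.52 (SE 0.13) and the export receptor gene Xpo4 at 1.31 (SE 0.11), against Thoc7 at -1.38 (SE 0.09) and Nxt1 at -1.24 (SE 0.07). The correction took away the calls of Ranbp2 at 0.86, Xpo4 at 0.84 and Nxt1 at -0.67, and scaling to one sum those of Thoc7 at -0.70 and Nxt1 at -0.56. Among nucleolar and ribosome biogenesis genes 2 of 47 were higher and 7 lower, with a median of -0.21 that became 0.49 after scaling to one sum. The 2 were Rrp1b at 1.26 (SE 0.18) and Ncl, the nucleolin gene, at 1.02 (SE 0.07), and Nop10 at -1.88 (SE 0.11) and Gar1 at -1.77 (SE 0.18) were the lowest. Ncl was under the threshold after the length and GC correction, at 0.59, with median centring, at 0.99, without chromatin replicate 2, at 0.97, and without nucleoplasm replicate 1 or 2, at 0.99 each.

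**Figure D2:**
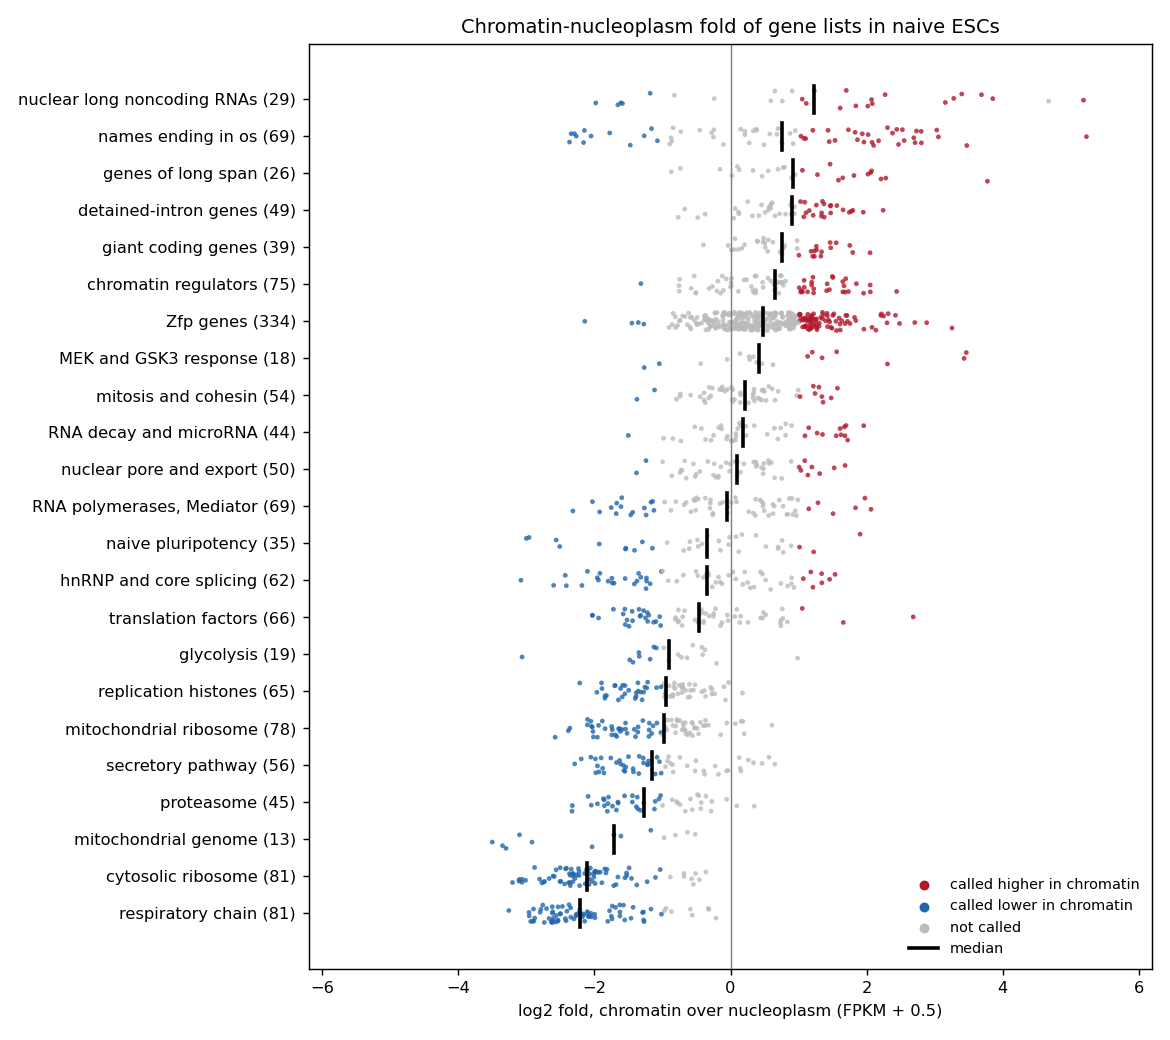
Log2 fold of chromatin over nucleoplasm for each tested gene of 23 lists, with the number tested in brackets, called genes in red (higher in chromatin) or blue (lower) and the list median as a black bar. Gm26917, listed at 0 in chromatin, is not drawn. The medians run from 1.23 for nuclear long noncoding RNAs to -2.21 for the respiratory chain, and the lists of the ribosome and the respiratory chain have no gene called higher.

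Messages of the translation machinery lay toward the nucleoplasm. Of 81 cytosolic ribosomal protein genes 73 were called lower in chromatin and none higher (median -2.11), beside 17.3% of all genes. Rps29 had 1631, 1463 and 1105 FPKM in the chromatin libraries, against 12769.7, 12828 and 12580.0 FPKM in the nucleoplasm libraries, a log2 fold of -3.20 (SE 0.12, adjusted p = 2.75e-10). Rps27 had 2279.7, 1852 and 1710.2 FPKM in chromatin and 18157, 16268 and 15662 FPKM in nucleoplasm, a fold of -3.11 (SE 0.13), and Rps21 was at -3.10 (SE 0.15). The acidic stalk gene Rplp1 had 913, 776 and 618 FPKM in chromatin and 4163, 4098 and 3864 FPKM in nucleoplasm, a fold of -2.41 (SE 0.13). In each of these 4 genes chromatin replicate 3 was the lowest library. The highest members, Rpl12 at -0.36, Rpsa at -0.46 and Rpl3 at -0.51, were not called and turned positive after scaling to one sum, as the typical gene did. The list's median member had 552 FPKM in chromatin and 2160 FPKM in nucleoplasm, and 6500 FPKM in cytoplasm.

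Initiation and elongation factor genes had 23 of 66 lower and 3 higher (median -0.47, or 0.22 after scaling to one sum). Eif5a, the gene of the hypusinated factor, had 88.7, 83.6 and 93.2 FPKM in the chromatin libraries, against 372, 369 and 347 FPKM in the nucleoplasm libraries, a log2 fold of -2.03 (SE 0.07, adjusted p = 9.5e-11), and Eif3i was at -2.03 (SE 0.07). The 3 higher in chromatin were Eif4g2, Eif4a2 and Eif2ak2. Eif4g2, a noncanonical scaffold of initiation, had 666, 732 and 605 FPKM in the chromatin libraries, against 101, 99.3 and 109 FPKM in the nucleoplasm libraries, a fold of 2.69 (SE 0.08, adjusted p = 8.32e-11). Eif4a2, a helicase gene that hosts small nucleolar RNAs, had 3527, 3529.9 and 3533 FPKM in chromatin and 1115, 1106 and 1136 FPKM in nucleoplasm, a fold of 1.66 (SE 0.06), and Eif2ak2, the antiviral kinase PKR, was at 1.05 (SE 0.10), which lay at the threshold and was not called after the length and GC correction. Aminoacyl-tRNA synthetase genes had 10 of 23 lower and none higher (median -0.93), with Nars at -1.72 (SE 0.05) and Sars at -1.72 (SE 0.12). After scaling to one sum 2 of the 23 synthetase genes were called lower, beside 921 of all 12592 genes.

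Genes of mitochondrial energy production lay in the same direction. Of 81 nuclear genes of the respiratory chain and ATP synthase 73 were called lower and none higher (median -2.21). Ndufa3, of complex I, had 42.2, 28.6 and 25.7 FPKM in the chromatin libraries, against 300.1, 299 and 316 FPKM in the nucleoplasm libraries, a log2 fold of -3.26 (SE 0.14, adjusted p = 4.65e-10). Uqcr11, of complex III, had 161, 145 and 115 FPKM in chromatin and 1142, 1105 and 1012 FPKM in nucleoplasm, a fold of -2.96 (SE 0.12), and Cox7a1, of complex IV, was at -2.96 (SE 0.18). Sdha at -0.33 and Ndufs1 at -0.32, large catalytic subunit genes, were not called. Mitochondrial ribosomal protein genes had 38 of 78 lower and none higher (median -0.98). Mrps16 was at -2.58 (SE 0.11), Mrps21 at -2.36 (SE 0.14) and Mrpl34 at -2.38 (SE 0.08), and Mrps2, the highest, was at 0.61 and not called. After scaling to one sum 18 of the 78 were called lower, beside 921 of all 12592 genes.

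Transcripts of the mitochondrial genome, which are made outside the nucleus, had 9 of 13 lower in chromatin and none higher (median -1.71). mt-Co3, of cytochrome oxidase, had 1339.8, 992 and 584 FPKM in the chromatin libraries, against 10373, 10118 and 10721 FPKM in the nucleoplasm libraries, a log2 fold of -3.50 (SE 0.21, adjusted p = 1.03e-08). mt-Co1 had 1063, 1099.5 and 629 FPKM in chromatin and 8706, 8514 and 9461 FPKM in nucleoplasm, a fold of -3.30 (SE 0.20), and mt-Co2 was at -3.35 (SE 0.15). The chromatin values of mt-Co1 and mt-Co3 were lowest in replicate 3. The complex I genes mt-Nd4 at -0.81, mt-Nd5 at -0.63 and mt-Nd2 at -0.52 were not called. The cytoplasm held 1827 ± 383 FPKM of mt-Co1, less than the nucleoplasm did, and how much mitochondrial RNA each fraction carries along was not tested.

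The proteasome, glycolysis and the secretory pathway followed the same direction. Proteasome genes had 27 of 45 lower and none higher (median -1.27), with Psma6 at -2.33 (SE 0.07), Psmb5 at -2.32 (SE 0.10) and Psma2 at -2.09 (SE 0.08), and with the large activator gene Psme4 at 0.35 and not called. Glycolytic enzyme genes had 8 of 19 lower (median -0.91). Ldhb, of lactate dehydrogenase, had 71.5, 76.2 and 80.6 FPKM in the chromatin libraries, against 642, 628 and 645 FPKM in the nucleoplasm libraries, a log2 fold of -3.06 (SE 0.07, adjusted p = 1.94e-11), and Pgk1 and Hk1 were at -1.48 (SE 0.06) and -1.43 (SE 0.08), or -0.78 and -0.75 with no call after scaling to one sum. Pfkp was at 0.99, just under the threshold, and was called at 1.03 and 1.08 without chromatin replicates 1 and 2. After scaling to one sum fewer were called lower, 12 of 45 proteasome, 1 of 19 glycolytic and 11 of 56 secretory genes, beside 921 of all 12592 genes. Secretory pathway genes had 32 of 56 lower (median -1.16), with the translocon genes Sec61b at -2.29 (SE 0.13) and Sec61g at -2.05 (SE 0.11). Matrix and basement membrane genes had 12 of 21 lower (median -1.15), with Sparc, a collagen-binding glycoprotein, at -2.35 (SE 0.15).

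Chaperone genes were mixed. Of 28, 9 were lower and 1 higher (median -0.55, or 0.08 after scaling to one sum). Hspe1, a mitochondrial cochaperone gene, had 145, 138 and 122 FPKM in chromatin and 594, 582 and 582 FPKM in nucleoplasm, a log2 fold of -2.12 (SE 0.08). Hsp90aa1, the inducible HSP90 gene, had 553, 809 and 727 FPKM in the chromatin libraries, against 2907, 2689 and 3177 FPKM in the nucleoplasm libraries, a fold of -2.08 (SE 0.17, adjusted p = 1.98e-07). Hspa8, the constitutive HSP70 gene, had 1147, 1106 and 1019 FPKM in chromatin and 1040.1, 1023 and 1049 FPKM in nucleoplasm, and the groups overlapped. The 1 higher, Hsph1, was at 1.03 (SE 0.13) and was not called without chromatin replicate 1, at 0.90, with median centring, at 0.99, or after the length and GC correction, at 0.83. Replication-dependent histone genes had 29 of 65 lower and none higher (median -0.95). Hist1h4d had 551, 483 and 393 FPKM in chromatin and 1997, 1841 and 1693 FPKM in nucleoplasm, a fold of -1.96 (SE 0.13), with 17203 ± 1512 FPKM in cytoplasm. Hist1h4c was at -2.22 (SE 0.14) and Hist2h4 at -1.90 (SE 0.11), and reads of near-identical H4 genes may be split between them. After scaling to one sum 7 of the 65 histone genes were called lower, beside 921 of all 12592 genes. Housekeeping genes had 9 of 22 lower and 1 higher, which was Polr2a (median -0.91). Gapdh at -0.98 and Actb at -0.92 missed the threshold, Actg1 was at 0.39, and Gapdh and Actb passed it without chromatin replicate 1, at -1.07 each.

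The coding genes lowest in chromatin differ in function. Fabp3, a fatty acid carrier gene, had 52.8, 49.4 and 44.3 FPKM in the chromatin libraries, against 677, 655 and 664 FPKM in the nucleoplasm libraries, a log2 fold of -3.76 (SE 0.08, adjusted p = 7.66e-12), that is 13.5-fold lower in chromatin. Ifitm1, an interferon-induced membrane protein gene, had 52.1, 47.4 and 52.5 FPKM in chromatin and 626, 599 and 570.0 FPKM in nucleoplasm, a fold of -3.55 (SE 0.08). Lst1, a leukocyte transcript, had 0.745, 1.38 and 0.912 FPKM in chromatin and 25.3, 23.4 and 19.3 FPKM in nucleoplasm, a fold of -3.95 (SE 0.18). All 3 were higher still in cytoplasm, at 1332 ± 97.7, 859 ± 14.2 and 51.8 ± 10.4 FPKM in that order. The calcium-binding protein gene S100a1 was at -3.64 (SE 0.25), the claudin gene Cldn6 at -3.50 (SE 0.11), the Ragulator gene Lamtor2 at -3.43 (SE 0.13), the syndecan gene Sdc4 at -3.34 (SE 0.16), Dpm3 at -3.28 (SE 0.21) and Smim22 at -3.25 (SE 0.28). Napsa, a lysosomal protease gene, had 2.03, 1.74 and 1.75 FPKM in the chromatin libraries, against 26.5, 26.98 and 25.5 FPKM in the nucleoplasm libraries, a fold of -3.52 (SE 0.10, adjusted p = 6.82e-11). Its cytoplasmic level, 11.3 ± 0.794 FPKM, was under its nucleoplasmic level. Ptgds, a second prostaglandin D synthase gene, had 0.0560, 0 and 0.142 FPKM in chromatin and 5.08, 6.21 and 5.64 FPKM in nucleoplasm, a fold of -3.44 (SE 0.14), and stood at 0.172 ± 0.0519 FPKM in total RNA.

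Pluripotency genes were found on both sides. Of 35 naive genes 10 were lower and 3 higher (median -0.34, or 0.36 after scaling to one sum), and of 18 core genes 4 were lower and 3 higher (median -0.24, or 0.45). Pou5f1, the gene of OCT4, had 177, 156 and 121 FPKM in the chromatin libraries, against 594, 585 and 558 FPKM in the nucleoplasm libraries, a log2 fold of -1.95 (SE 0.11, adjusted p = 6.69e-09). Nanog had 91.1, 91.8 and 76.4 FPKM in the chromatin libraries, against 248, 239 and 267 FPKM in the nucleoplasm libraries, a fold of -1.54 (SE 0.08, adjusted p = 1.59e-09), or -0.84 and no call after scaling to one sum. Sox2 at -0.62 (SE 0.08, adjusted p = 1.36e-05), Zfp42 at -0.60 and Esrrb at -0.42 were lower in all 3 chromatin libraries than in any nucleoplasm library but under the threshold. Klf4 lay in the other direction with 60.9, 60.8 and 68.5 FPKM in chromatin and 37.9, 38.2 and 34.5 FPKM in nucleoplasm and a fold of 0.77 (SE 0.12, adjusted p = 6.39e-05), which was not called.

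At the ends of the naive list were Spp1, the osteopontin gene, with 132, 195 and 136 FPKM in chromatin and 1218, 1194 and 1245 FPKM in nucleoplasm and a log2 fold of -3.0 (SE 0.12), Dppa5a, a small RNA-binding protein gene, at -2.96 (SE 0.20), and Dppa3, a maternal factor gene, at -2.56 (SE 0.14). The 3 called higher were Gbx2, a homeobox gene, with 6.48, 6.06 and 10.3 FPKM in the chromatin libraries, against 1.66, 1.58 and 1.60 FPKM in the nucleoplasm libraries and a fold of 1.90 (SE 0.16, adjusted p = 2.56e-07), Manba at 1.22 (SE 0.18) and the imprinting factor gene Zfp57 at 1.01 (SE 0.05), which was not called with median centring, at 0.98, without nucleoplasm replicate 1, at 0.98, or without chromatin replicate 3, at 0.99. In the core list, Cnot3 at 1.63 (SE 0.18), Tcf7l1 at 1.34 (SE 0.16) and Rif1 at 1.03 (SE 0.12) were higher, and L1td1 at -1.13 (SE 0.14) and Etv5 at -1.05 (SE 0.07) were lower. Rif1 lost its call without chromatin replicate 2 or 3 or nucleoplasm replicate 2, at 0.97 to 1.00, with median centring, at 0.99, and after the length and GC correction, at 0.33. Etv5 lost its call without chromatin replicate 2, at -0.98. After the length and GC correction L1td1 and Etv5 were at -0.95 each and not called, and after scaling to one sum they were at -0.43 and -0.35 and not called. Tet1, a DNA demethylase gene, had 32.00, 44.6 and 76.4 FPKM in chromatin and 38.2, 36.8 and 40.6 FPKM in nucleoplasm, with chromatin replicate 1 below the nucleoplasm, and its fold of 0.31 turned to -0.03 without chromatin replicate 3. Formative genes, which are low in naive cells, had 2 of 16 higher and 3 lower, with Etv1 at 2.32 (SE 0.19), Pim2 at 1.79 (SE 0.10), Krt18 at -1.81 (SE 0.15) and Otx2 at -1.18 (SE 0.20). Otx2 was at -0.97 and not called without chromatin replicate 1, and at -0.54 and not called after scaling to one sum.

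Genes that answer to MEK and GSK3 signalling, the pathways inhibited in this medium, had 7 of 18 higher (38.9%) and 2 lower (11.1%), with a median of 0.42. Of all genes 17.4% were higher and 17.3% lower. The folds of the list ran down to -1.27. After the length and GC correction 6 were higher and none lower, beside 1914 higher and 1940 lower of all 12562 genes. After scaling to one sum 11 were higher and none lower, beside 4862 and 921 of all 12592 genes. Targets of the Wnt pathway had the highest folds of the list. T, the brachyury gene, had 15.3, 12.9 and 17.5 FPKM in the chromatin libraries, against 1.05, 0.770 and 0.934 FPKM in the nucleoplasm libraries, a log2 fold of 3.46 (SE 0.20, adjusted p = 7.41e-09). Sp5, a direct Wnt target, had 24.5, 27.2 and 14.3 FPKM in the chromatin libraries, against 1.40, 1.72 and 1.43 FPKM in the nucleoplasm libraries, a fold of 3.43 (SE 0.20, adjusted p = 6.47e-09). Of 23 immediate early genes 4 were higher and 4 lower (17.4% each), beside 17.4% and 17.3% of all genes. Fos had 41.3, 48.98 and 50.4 FPKM in chromatin and 8.03, 9.95 and 9.24 FPKM in nucleoplasm, a fold of 2.31 (SE 0.26, adjusted p = 3.11e-06), and total RNA held 0.782 ± 0.674 FPKM, less than either fraction. Fosb had 6.95, 7.47 and 8.34 FPKM in the chromatin libraries, against 0.143, 0.256 and 0.143 FPKM in the nucleoplasm libraries, a fold of 3.57 (SE 0.18, adjusted p = 1.66e-09), with 0.205 ± 0.140 FPKM in total RNA. Per1 was at 1.36 (SE 0.17). Gadd45b at -1.47 (SE 0.12), Maff at -1.45 (SE 0.13) and Ier3 at -1.27 (SE 0.26) were lower, the last with -0.99 and no call without chromatin replicate 2 and -0.71 and no call after the length and GC correction. After scaling to one sum none of the 3 was called, at -0.83, -0.90 and -0.74 in that order.

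Of 6 tested genes of the 2-cell-like state, which a small share of stem cells enters, 5 were higher in chromatin. Zscan4c had 11.1, 13.9 and 3.77 FPKM in the chromatin libraries, against 1.46, 1.46 and 1.63 FPKM in the nucleoplasm libraries, a log2 fold of 2.15 (SE 0.33, adjusted p = 5.31e-05), and Zscan4f 4.93, 6.61 and 1.94 FPKM in chromatin and 0.596, 0.399 and 0.579 FPKM in nucleoplasm, a fold of 2.16 (SE 0.30). Chromatin replicate 3 lay well under the other chromatin libraries for both, though still above the nucleoplasm, and without it the folds were 2.68 for Zscan4c and 2.61 for Zscan4f. None of the 5 averaged 5 FPKM over the 12 libraries, and with that filter only the uncalled gene of the list was left, at -0.37. These are near-identical copies, and in bulk RNA fewer cells of this kind and less RNA per cell cannot be told apart. Of the other marker lists, 2 of 6 tested primitive endoderm genes were lower, which were Sparc and, at -3.01 (SE 0.18), Apoe, and 2 of 5 trophectoderm genes were lower. The mesoderm and neural list had 1 of 4 higher, which was T, and 1 lower, and the 1 fibroblast gene tested was not called.

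Size and cytoplasmic level ran along with the fold. For coding genes with under 1 kb of exonic sequence the median log2 fold was -1.52, and 214 of 342 were called lower (62.6%). From 3 to 5 kb the median was -0.11, and from 8 kb upward it was 0.54, with 531 of 2034 called higher (26.1%). Across 11558 coding genes Spearman's rho with the log2 fold was 0.427 for exonic length, 0.232 for genomic span, 0.218 for the number of exons and -0.0916 for GC content. These are descriptions across genes, which share libraries and are not independent. Within the 3 to 5 kb class the medians by span ran from -0.23 to 0.13 with no order. Genes under 1 FPKM in cytoplasm had a median of 1.36, with 829 of 1327 called higher (62.5%), and genes at 100 FPKM or more had a median of -1.34, with 769 of 1251 called lower (61.5%). The filter bears on the lowest class, since a gene under 1 FPKM in cytoplasm was tested only if another fraction was higher. Likewise, of 403 genes under 1 FPKM in chromatin 175 were called lower and none higher. How much of the trend the filter makes was not tested. With the libraries corrected for exonic length and GC content the calls numbered 3854, with 1914 higher and 1940 lower, of which 3348 were among the 4374 above.

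**Figure D3:**
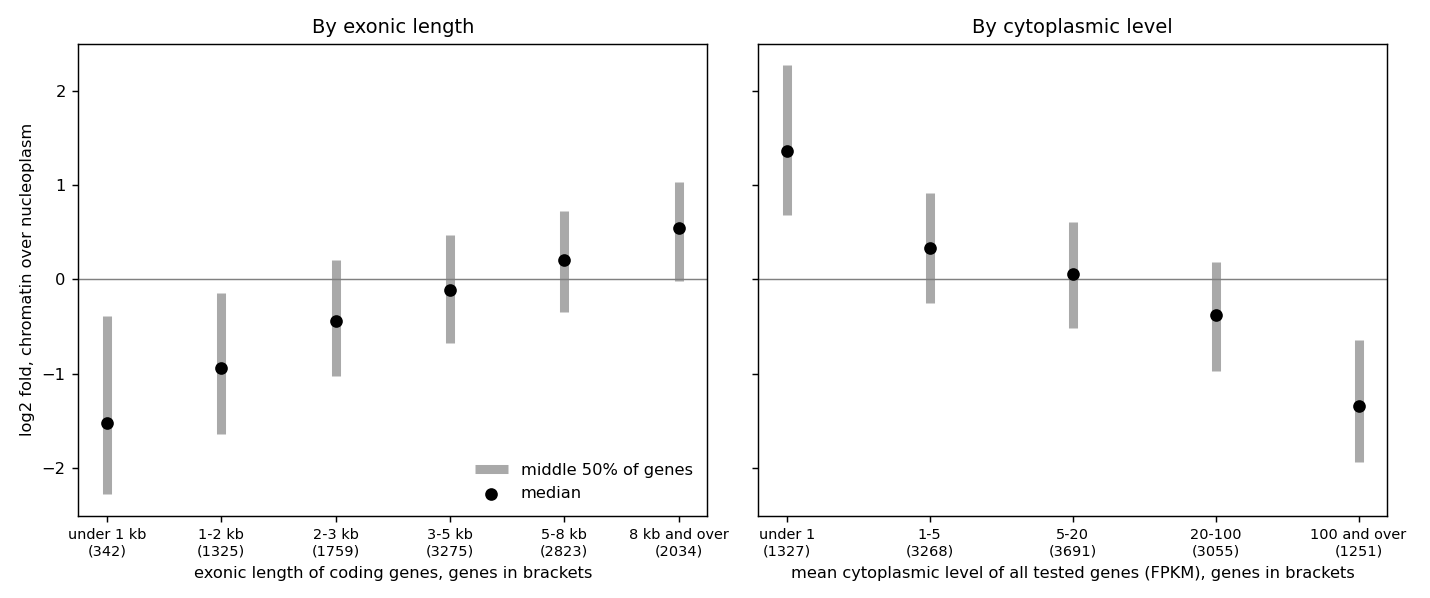
Log2 fold of chromatin over nucleoplasm in naive cells by exonic length of coding genes (left) and by mean cytoplasmic FPKM of all tested genes (right), as the median (dot) and the middle 50% of genes (bar), with the number of genes in brackets. The median climbs from -1.52 in the shortest class to 0.54 in the longest and drops from 1.36 to -1.34 with cytoplasmic level. Genes in the lowest cytoplasmic class passed the filter only through a higher level in another fraction.

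The same fractions of EpiLC were set against those of nESC to ask which of these folds differ between the states. The states have separate tables, so the log2 fold was formed within each and the folds were compared in one limma model over 12 libraries, each centred on its median. Of 11704 genes tested in both states 909 differed (7.77%), 445 with a higher fold in nESC (3.8%) and 464 with a lower one (3.96%), or 332 and 597 after scaling to one sum. In EpiLC 4199 of 12834 genes were called between the fractions (32.7%). Among genes tested in both states, 66.0% of 3998 nESC calls and 69.6% of 3794 EpiLC calls were called in the same direction in the other state, and 6 genes were called in opposite directions.

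Id3, the gene of an inhibitor of basic helix-loop-helix factors and a target of BMP signalling, had the largest difference. In nESC it had 31.2, 39.3 and 20.3 FPKM in chromatin and 1.52, 1.63 and 1.28 FPKM in nucleoplasm, and in EpiLC 8.56, 10.9 and 13.2 FPKM in chromatin and 12.01, 12.3 and 12.5 FPKM in nucleoplasm. The log2 fold was 3.91 in nESC and -0.19 in EpiLC, a difference of 4.07 (SE 0.30, adjusted p = 3.02e-05). Bach2 had a fold of 3.77 in nESC and 0.56 in EpiLC, a difference of 3.18 (SE 0.42, adjusted p = 0.000428). Pim2, a kinase gene downstream of LIF signalling, had 1.79 in nESC and -1.04 in EpiLC, a difference of 2.79 (SE 0.17, adjusted p = 1.29e-05). Its EpiLC libraries held 33.4, 33.04 and 25.8 FPKM in chromatin and 67.8, 67.5 and 55.2 FPKM in nucleoplasm, so the order of the fractions was turned.

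Polr2a had a fold of 1.98 in nESC and 0.05 in EpiLC, a difference of 1.90 (SE 0.19, adjusted p = 0.000121). In EpiLC it had 15.6, 17.6 and 14.7 FPKM in chromatin and 13.8, 15.9 and 16.6 FPKM in nucleoplasm. Other genes with a higher fold in nESC come from several pathways. Eif4g2 differed by 1.47 (SE 0.19, adjusted p = 0.000365), Sf3b3 by 1.51 (SE 0.14, adjusted p = 0.000105), Macf1 by 1.40 (SE 0.21, adjusted p = 0.000757) and Ranbp2 by 1.45 (SE 0.26, adjusted p = 0.00205). Mcm7 had 0.61 in nESC and -0.78 in EpiLC, a difference of 1.36 (SE 0.20, adjusted p = 0.000693). By list, 12 of 54 cell division genes and 9 of 50 nuclear pore genes had a called higher fold in nESC and none a lower one. The counts were 11 of 62 for core splicing, 8 of 47 for ribosome biogenesis, 7 of 66 for translation factors, 7 of 75 for chromatin regulators and 7 of 49 for detained introns, with none lower in any of the 5. EpiLC chromatin replicate 3 stands apart from its group, with 6077 FPKM of mt-Co1 beside 1894 and 1133 FPKM in the other EpiLC chromatin libraries, and its part in these counts was tested by leaving it out. Without it the counts were 8, 6, 9, 9, 6, 4 and 6 in the same order.

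In the other direction, S100a1 had a fold of -3.64 in nESC and -1.02 in EpiLC, a difference of -2.65 (SE 0.36, adjusted p = 0.000485). Napsa had -3.52 in nESC and -0.11 in EpiLC, a difference of -3.44 (SE 0.33, adjusted p = 0.000121). Cfp, the properdin gene, differed by -2.89 (SE 0.22, adjusted p = 3.02e-05) and Lars2, a mitochondrial leucyl-tRNA synthetase gene, by -2.88 (SE 0.20, adjusted p = 2.24e-05), with a fold in EpiLC of 0.96 and 0.34 in that order. Etfrf1 had a fold of -0.97 in nESC and 1.81 in EpiLC, a difference of -2.81 (SE 0.31, adjusted p = 0.000179). Of 81 ribosomal protein genes 7 had a called lower fold in nESC and none a higher one, and without EpiLC chromatin replicate 3 this was 1. The medians of the list were -2.11 in nESC and -1.78 in EpiLC. Of the microRNA precursors, Mir17hg had a fold of 5.19 in nESC and 4.23 in EpiLC, and the difference of 0.93 (SE 0.23, adjusted p = 0.0102) stayed under the threshold of 1. Mirg had 3.69 in nESC and 3.13 in EpiLC, a difference of 0.53 (SE 0.22, adjusted p = 0.0991).

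**Figure D4:**
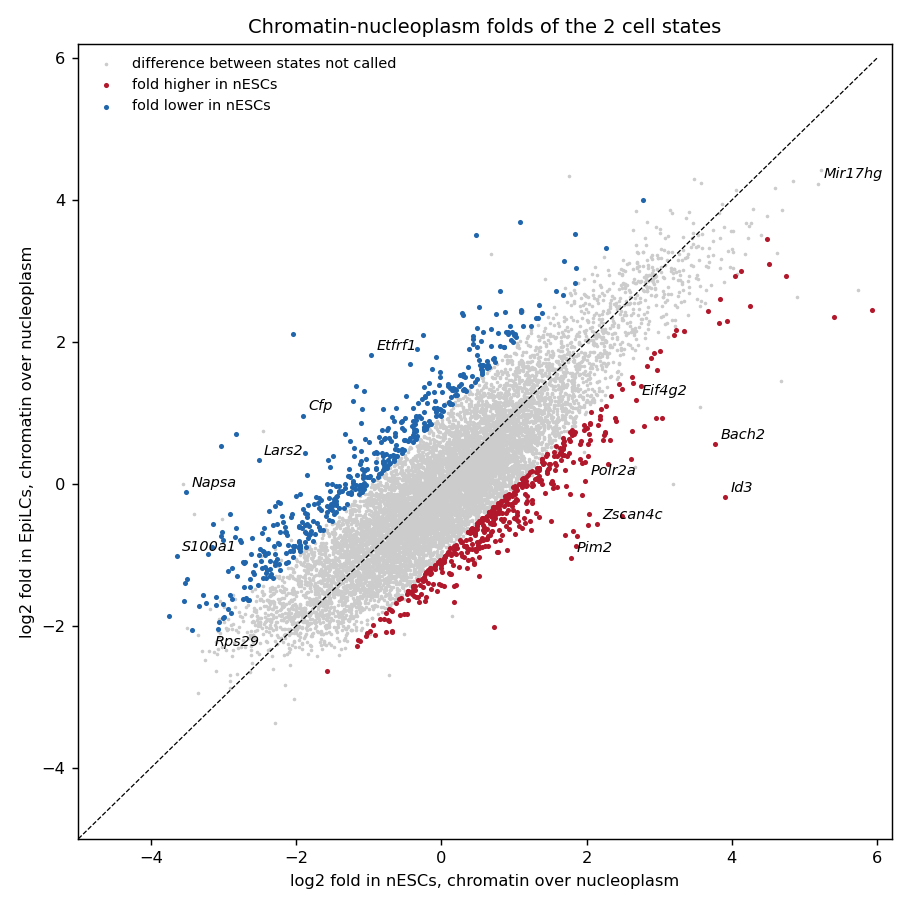
Log2 fold of chromatin over nucleoplasm in nESC (horizontal) and EpiLC (vertical) for 11703 genes tested in both states, with genes whose fold was called higher (red) or lower (blue) in nESC. Gm26917, listed at 0 in chromatin, is off the scale. Id3 lies at 3.91 and -0.19, far under the diagonal, and Mir17hg at 5.19 and 4.23.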

How the data were processed

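RNA of 4 fractions of nESC and EpiLC was sequenced in 3 libraries each. The deposited values are FPKM per gene and library, for which the submitters' processing notes name TopHat2, Cuffnorm and the build GRCm38 (mm10). Tool versions, the annotation, the use of strand and the library normalization were not given in the sources used here. The tables of the states are normalized separately. Genes averaging 1 FPKM or more across the 12 nESC libraries were fitted as log2(FPKM + 0.5) with limma 3.58.1 (R 4.3.3, trended variance), with all 4 nESC fractions sharing the variance. Calls needed an adjusted p (Benjamini-Hochberg) under 0.05 together with a log2 fold of at least 1 in size. The states were compared in a second limma model over 12 libraries. Python 3.11.15, pandas 2.3.3 and scipy 1.17.1 made the summaries, with GENCODE M21 for annotation. The fits were tested on simulated data. The members and lists were chosen with earlier results of these data known. Genes were named by rule: the 15 largest calls in each direction with at least 5 FPKM in the higher fraction, 3 at each end of every list, a fixed set of 21 genes, and the 6 largest state differences. The text names 8 genes outside the rule, chosen after their values were seen, and some results are not reported here. The pseudocount, the filter, the scaling, the variance model, the libraries fitted, a replicate block, isolated zeros, a length and GC correction and leaving out each library were tried as alternatives. For the state difference the length and GC correction, isolated zeros and the filters other than 5 FPKM were not run. Depth is not given, and the steps between low FPKM values gave the fragments behind a value, with 85.4% to 90.9% of low values within 0.1 of a whole number.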

Additional observations from a re-analysis of the deposited data

Results flagged for a closer look

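For 53 of the genes named above, the log2 fold of chromatin over nucleoplasm in nESC differed from that in EpiLC by the test of the difference itself, in the limma model over 12 libraries, with an adjusted p under 0.05 and a difference of at least 1 in size. The values are nESC minus EpiLC on the log2 scale. In 37 genes the call held under each alternative run for it, which were 19, or 18 for genes that do not average 5 FPKM in both states. These were other pseudocounts, a filter of 5 FPKM, other scalings, no variance trend, a replicate block and leaving out each library, while the length and GC correction and the treatment of isolated zeros were not run for the state difference. Those with a higher fold in nESC are listed by size. The folds differed in Id3 by 4.07, Bach2 by 3.18, Pim2 by 2.79, Zscan4c by 2.68, Polr2a by 1.90, Nlrp12 by 1.79 and Etv1 by 1.67. Next came Gbx2 by 1.53, Sf3b3 by 1.51, Hsph1 by 1.49, Eif4g2 by 1.47, Ranbp2 by 1.45, Macf1 by 1.40 and Mcm7 by 1.36. They were followed by Mdn1 by 1.28, Actg1 by 1.27, Hnrnpa2b1 by 1.27, Ncl by 1.24, Mki67 by 1.23, 2010111I01Rik by 1.20 and Actb by 1.18. Those with a lower fold in nESC follow. The folds differed in Napsa by -3.44, Cfp by -2.89, Lars2 by -2.88, Etfrf1 by -2.81, S100a1 by -2.65, Cldn6 by -2.19 and Ifitm1 by -1.93. Behind them came Fabp3 by -1.92, Dpm3 by -1.74, Smim22 by -1.60, Epb41l4aos by -1.59, Zfp87 by -1.5, Dppa3 by -1.46 and Ier3 by -1.41. The remaining ones were Lamtor2 by -1.40 and Gadd45b by -1.29.

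In the other 16 genes the call was lost under at least 1 alternative. The fold was higher in nESC for Atrx by 1.19, Ep300 by 1.01, Manba by 1.03, Olfr836 by 1.62, Olfr837 by 1.71, Rbm25 by 1.13, Rif1 by 1.04, Sf1 by 1.07, Srpk3 by 1.39, Xpo4 by 1.11 and Zfp386 by 1.08. It was lower in nESC for Apoe by -1.35, Maff by -1.09, Polr2k by -1.03, Rps27 by -1.43 and Sdc4 by -1.66. The calls lost most often were those of Atrx, in 12 of 19 alternatives, Olfr837, in 10 of 18 alternatives, Ep300, in 9 of 19 alternatives and Polr2k, in 8 of 19 alternatives. With 3 libraries a group, single libraries were not tested for standing apart.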

How the results depend on the processing

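The 4374 calls between the fractions ranged from 3008 with a filter of 5 FPKM to 5783 after scaling to one FPKM sum, and no gene called above was called in the opposite direction under any alternative. Leaving out 1 library gave 4365 to 4418 calls. The split between directions moved with the scaling, to 4862 higher and 921 lower after scaling to one sum, and with the filter, to 1101 higher and 1907 lower at 5 FPKM. The labels do not say whether the replicate numbers pair the libraries. The deviations of same-numbered chromatin and nucleoplasm libraries correlated at 0.0685, -0.0607 and 0.0799, and those of other pairs at -0.167 to 0.129. Values this low cannot decide it, since noise of each fraction could hide a shared culture. With the replicate block 4376 genes were called between the fractions and 886 between the states. The state difference gave 486 calls at 5 FPKM, 151 higher and 335 lower in nESC, and leaving out 1 library gave 804 to 1180, the last without EpiLC chromatin replicate 1.

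Some medians of lists changed sign. After scaling to one sum, which moved the median of all genes to 0.69, they were 0.22 for translation factors, 0.08 for chaperones, 0.35 for core splicing, 0.49 for ribosome biogenesis, 0.63 for the transcription machinery, 0.36 for naive genes, 0.45 for core pluripotency genes, 0.55 for solute carriers and 0.37 for mesoderm and neural genes. So did single genes, to 0.19 for mt-Nd2, 0.07 for mt-Nd5, 0.19 for Rpl3, 0.25 for Rpsa, 0.35 for Rpl12, 0.38 for Sdha, 0.38 for Ndufs1, 0.08 for Sox2, 0.29 for Esrrb and 0.11 for Zfp42. None of these 10 genes was called above. After the length and GC correction the medians were -0.06 for cell division, -0.10 for nuclear pore and -0.20 for formative genes, with Rian at -0.41 and Tet1 at -0.39. At 5 FPKM they were -0.51 for formative, -0.05 for immediate early, -0.45 for opposite-strand and 0.12 for mesoderm and neural genes. Of the tested 2-cell-like genes only the uncalled one, at -0.37, was left at 5 FPKM. With no filter the medians were 0.02 for pseudogenes, 0.04 for solute carriers, 0.06 for trophectoderm and 0.14 for mesoderm and neural genes. Leaving out 1 library put the formative median between -0.13 (without chromatin replicate 3) and 0.20 and Tet1 between -0.03 (without chromatin replicate 3) and 0.59. Of 189 genes whose folds were followed, 134 kept their call and direction under every alternative. Beyond the changes of scale and of genes or libraries that each alternative makes, the cause was not tested. Depth limits low genes most, and more so in chromatin.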

Other observations

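1110059E24Rik, a coding gene that was not called, was at 41038 FPKM in nucleoplasm replicate 1 and at 26.4 and 28.8 FPKM in the other nucleoplasm libraries.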
